A study of Mus musculus with 20 samples.

Results

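Fatty acid desaturases and elongases were followed in mouse liver as 7 genes: the front-end desaturase genes Fads1 and Fads2, the elongase genes Elovl1, Elovl2, Elovl3 and Elovl5, and the stearoyl-CoA desaturase gene Scd2. They were chosen by symbol, with every probe that the platform table gives for them, 12 probes of 45281 on the Illumina mouse BeadChip. A probe was tested where its detection p was under 0.05 on at least 5 of 20 arrays, which 10 probes of 6 genes met, among 18285 probes that met it in all. The second Fads1 probe was detected on 1 of 20 arrays and the only Scd2 probe on 4, so Scd2 has no tested value here. The least often detected of the 10 tested probes, one of Elovl1, was detected on 17 arrays.

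The 20 arrays carried total liver RNA of male mice of 14 weeks on a high fat diet, 5 arrays in each of 4 groups, from a study of blood cholesterol and artery disease. Both genotypes are labelled C57BL/6: wild type, and ApoE-/-, which lacks apolipoprotein E. Mice of each were left untreated or given a TLR7 and TLR9 antagonist, which blocks receptors that sense nucleic acids in endosomes. Intraperitoneal doses of 15 mg/kg were given 3 times a week from week 6 to week 11 of age, so 3 weeks without dosing preceded tissue collection. Fat made up 35% and cholesterol 0.03% of the wild-type diet, against 21% and 0.15% of the ApoE-/- diet, so genotype and diet cannot be told apart. Untreated mice are described as receiving no antagonist, and no vehicle injection is mentioned.

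Desaturases place double bonds into fatty acyl chains and elongases lengthen them by adding carbons from malonyl-CoA, both on the endoplasmic reticulum. Fads2, the delta-6 desaturase, and Fads1, the delta-5 desaturase, act in turn with Elovl5 and Elovl2 to make long-chain polyunsaturated fatty acids such as arachidonic and docosahexaenoic acid from dietary precursors, and the liver is a main site of this synthesis. Elovl1 and Elovl3 act mainly on saturated and monounsaturated chains, and Scd2 introduces a double bond into saturated ones. In mouse liver the genes of polyunsaturated fatty acid synthesis are known targets of sterol regulatory element binding proteins and of the fatty acid receptor Ppara, and Elovl3 is known for higher expression in males and for a daily rhythm.

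Fads2, Elovl5 and Elovl2 are the genes of this synthesis that fell with the antagonist in wild-type livers, and the sequences at their start sites are shown so that the letters can be read beside the values. No window was at hand for Fads1, Elovl3 or Scd2, so these genes were not searched. Windows of 250 bases before to 50 bases after a RefSeq start were at hand for 4 of the 7 genes (Fads2, Elovl1, Elovl2 and Elovl5), 6 windows in all, on GRCm38.p6. Each is written 5′ to 3′ on the strand of its gene, and capitals mark matches on either strand. Matches in the 3 windows shown were to the GC box, spelled GGGCGG, and to the E-box, spelled CACGTG. Also matched was the motif named after its letters CCAAT, which reads ATTGG on the other strand. These matches do not overlap. The other motifs searched had no match in these windows and are given below the sequences.
Fads2, chr19:10101454-10101753, minus strand: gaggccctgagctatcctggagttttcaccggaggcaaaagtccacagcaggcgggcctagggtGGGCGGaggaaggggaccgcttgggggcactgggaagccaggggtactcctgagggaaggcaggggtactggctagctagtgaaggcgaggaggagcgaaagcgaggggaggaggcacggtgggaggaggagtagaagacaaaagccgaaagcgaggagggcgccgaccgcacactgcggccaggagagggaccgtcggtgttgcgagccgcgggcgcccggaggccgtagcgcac
Elovl5, chr9:77917115-77917414, plus strand: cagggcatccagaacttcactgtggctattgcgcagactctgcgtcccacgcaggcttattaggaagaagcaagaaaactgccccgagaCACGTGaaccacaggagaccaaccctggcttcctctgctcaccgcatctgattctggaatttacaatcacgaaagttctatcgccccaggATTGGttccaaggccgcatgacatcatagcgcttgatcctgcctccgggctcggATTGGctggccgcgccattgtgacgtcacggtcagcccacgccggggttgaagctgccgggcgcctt
Elovl2, chr13:41220354-41220653, minus strand: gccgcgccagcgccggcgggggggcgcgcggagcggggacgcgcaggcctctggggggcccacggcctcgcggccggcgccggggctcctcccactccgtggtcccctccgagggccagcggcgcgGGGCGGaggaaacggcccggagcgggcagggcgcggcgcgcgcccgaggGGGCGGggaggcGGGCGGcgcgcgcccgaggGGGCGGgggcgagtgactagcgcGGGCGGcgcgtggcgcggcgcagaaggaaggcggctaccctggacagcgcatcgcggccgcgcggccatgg
The Fads2 window held 1 GC box and the Elovl2 window shown 5, while a second Elovl2 window, at chr13:41220113-41220412, held no match to any motif searched, and GC boxes occur in 35.7% of the 32851 windows of the same length. The Elovl5 window held 1 E-box, found in 7.15% of all windows, and 2 matches to CCAAT, found in 37.4%. Of the 6 windows 4 held a GC box and 2 a match to CCAAT. Both Elovl1 windows, not printed, held GC boxes, and the one at chr4:118427843-118428142 also CCAAT. The called Elovl1 probe rose, so these motifs are not particular to the genes that fell. The core of the sterol regulatory element, searched as TCACNCCAC on both strands, is in 1.24% of all windows and in 0 of the 6 windows of these genes. Direct repeats of AGGTCA spaced by 1 or by 4 bases were in 0 of the 6 windows too, and in 0.0396% and 0.0152% of all. Fads2 and Fads1 are neighbours on chromosome 19 of that assembly, with Fads3 on the far side of Fads2 and Fen1 on the far side of Fads1.

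Arrays fell into 2 sets by the form of their column names, replicates 1 to 3 and replicates 4 and 5 of every group. In the second set the column names of the untreated ApoE-/- arrays carry a different number from those of the other 3 groups, which was read as another slide, though no label says so. Within set 2 the antagonist effect in ApoE-/-, its difference between genotypes and the untreated genotype difference therefore cannot be told apart from that number. Mean signals were equal within each combination of genotype and set, so arrays had been scaled before deposit. Between 14436 and 18748 probes were detected per array. The signal of Apoe was 13.60 to 14.61 on the 10 wild-type arrays and 5.26 to 6.88 on the 10 ApoE-/- arrays, as the genotype labels have it. The 9 tested hepatocyte markers summed to a log2 signal of 17.17 to 17.34 on all arrays. Of these 9 genes 2 rose and 0 fell in each genotype. Arrays were quantile-normalized, so a steady sum of bright genes does not by itself show a steady share of hepatocytes. Marker sums of other cells moved with treatment, and such sums follow the brightest genes most. The 10 genes of Kupffer cells and macrophages summed to 11.05 to 11.75 in untreated and 13.14 to 13.56 in treated wild-type livers, and to 12.43 to 12.79 and 13.04 to 13.89 in ApoE-/- livers. Of these 10 genes 7 rose and 1 fell in wild type, and 7 rose and 0 fell in ApoE-/-. Stellate cell and fibroblast markers (8 genes) went from 12.40 to 12.80 up to 13.39 to 13.71 in wild type. In ApoE-/- they went from 12.62 to 13.08 up to 13.19 to 13.49. Of these 8 genes 5 rose in wild type and 2 in ApoE-/-, and 0 fell. Neutrophil markers (6 genes) went from 5.87 to 7.71 up to 8.96 to 10.29 in wild type. In ApoE-/- they were at 8.56 to 9.48 untreated and 8.55 to 10.07 treated. Of these 6 genes 5 rose in wild type and 1 in ApoE-/-, and 0 fell. Markers of T, NK and B cells (5 genes) went from 5.42 to 6.12 up to 7.73 to 8.31 in wild type. In ApoE-/- they went from 5.21 to 5.99 up to 7.27 to 8.40. Of these 5 genes 4 rose in wild type and 5 in ApoE-/-. The summed signal of red blood cell markers (3 genes) went from 12.25 to 12.77 up to 13.66 to 14.82 in wild type, against 12.30 to 13.91 and 13.29 to 13.97 in ApoE-/-. Of these 3 genes 2 rose and 1 fell in wild type, and 1 rose and 1 fell in ApoE-/-. Of 7 tested endothelial markers 4 rose in wild type, and 1 rose and 1 fell in ApoE-/-, with sums of 11.47 to 11.99 untreated and 12.00 to 12.38 treated in wild type, and 11.92 to 12.08 and 11.90 to 12.21 in ApoE-/-. Their part in the changes below was not tested, and in bulk tissue fewer cells of a type and less RNA per cell cannot be told apart. Of the adipocyte list, Adipoq, Lep, Plin1 and Retn had no probe past the detection filter, so adipocytes cannot be followed here. Car3, the only gene of that list tested, is not read as a marker of them. It fell from 12.12 to 12.67 down to 8.43 to 10.63 in wild type and from 11.56 to 12.30 down to 8.60 to 10.48 in ApoE-/-. Of the bile duct markers, Krt7, Krt19 and Epcam had none past it, and Sox9, the only one tested, rose in wild type, from 6.17 to 7.96 up to 7.33 to 8.54, against 7.05 to 7.90 and 7.25 to 8.19 in ApoE-/-.

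Transcript signals of most tested genes of polyunsaturated fatty acid synthesis were lower in treated than in untreated wild-type livers. Fads2, Elovl5 and Elovl2 fell, and so did Elovl3, while Elovl1 rose by 1 of its 4 probes. Of the 10 probes 5 fell, those of 4 genes, and 1 rose, where 18.4% of all tested probes fell and 18.9% rose. The median change was -0.34 over the 10 probes and -0.03 over all 18285. In ApoE-/- livers 2 of the 10 probes fell, 1 of Fads2 and the Elovl2 probe, and Fads1 rose, where 14.9% of all probes fell and 14.2% rose, with medians of -0.22 and -0.02. Of these changes, those of Fads2 (both probes) and Elovl5 in wild type and of 1 Fads2 probe in ApoE-/- had groups that did not overlap at all, as had 27.2% of all probes in wild type and 18.1% in ApoE-/-. Signals are given as normalised log2 values in the order of replicates 1 to 5, and changes as log2 differences ± SE with 5 arrays a group and limma's adjusted p over all tested probes.

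**Figure D1:**
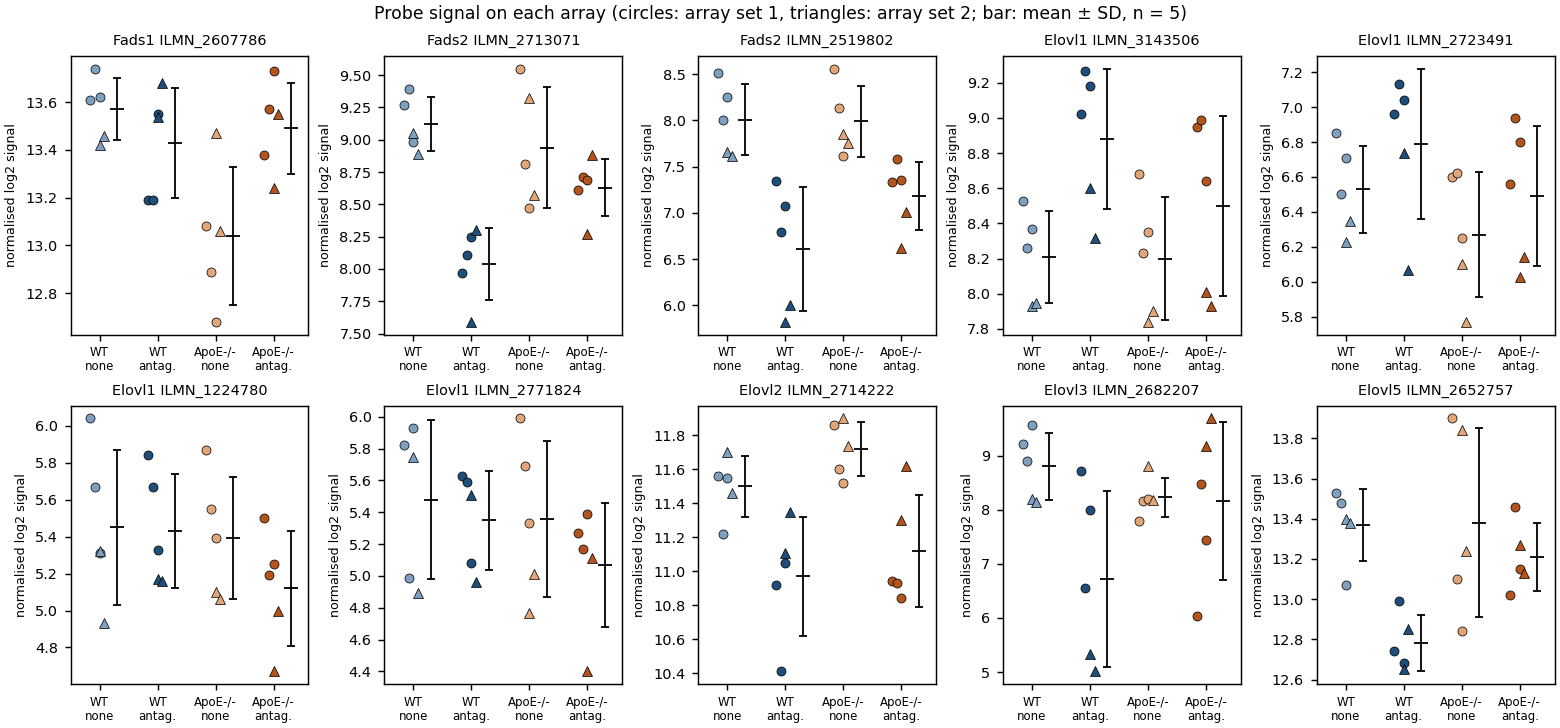
Normalised log2 signal (y axis, own scale per panel) of the 10 tested probes on each array of the 4 groups (x axis), with circles for array set 1, triangles for array set 2, and the mean ± SD of 5 arrays beside them. Both Fads2 probes and Elovl5 lie lower on all treated than on all untreated wild-type arrays, and the treated groups of Elovl3 are spread over several log2 units.

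**Figure D2:**
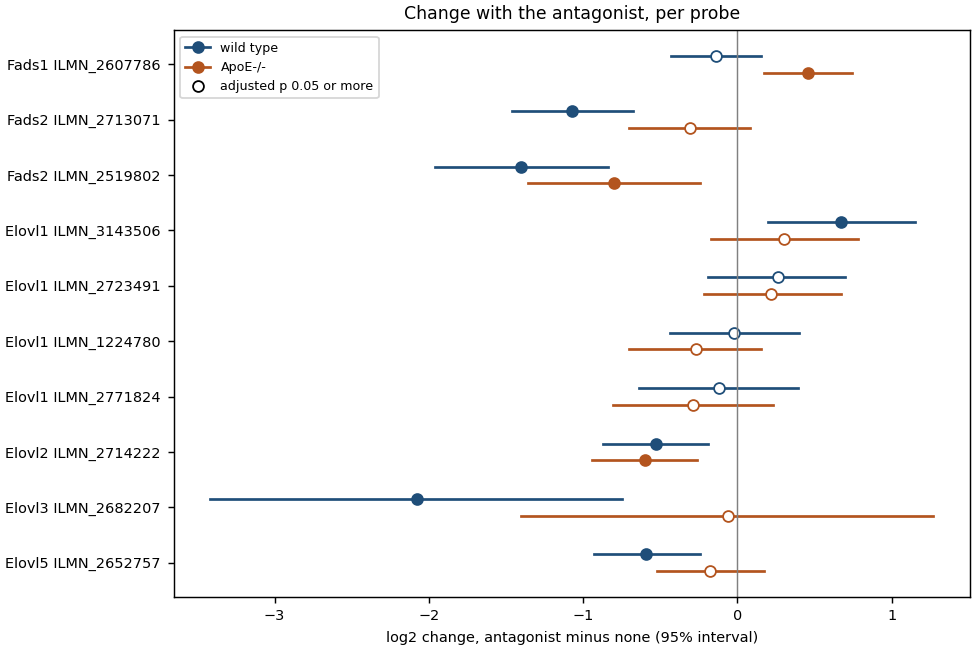
Log2 change with the antagonist (x axis) of each probe in wild type (blue) and ApoE-/- (brown), as the estimate and its 95% interval, filled where the adjusted p was under 0.05. Elovl2 changed by -0.53 in wild type and -0.60 in ApoE-/-, while the wild-type change of Elovl3, -2.08, has the widest interval.

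Fads2, the delta-6 desaturase that starts the pathway, was measured by 2 probes. The probe ILMN_2713071 read 9.27, 9.39, 8.98, 9.05 and 8.89 in untreated and 7.97, 8.11, 8.25, 7.59 and 8.30 in treated wild-type livers. Every treated wild-type array lay below every untreated one. The change was -1.07 ± 0.19 (adjusted p = 0.000114), 2.11-fold lower. Without and with the antagonist, ApoE-/- livers read 9.55, 8.81, 8.47, 9.32 and 8.57, and 8.61, 8.71, 8.69, 8.27 and 8.88. These groups overlapped, and the change of -0.31 ± 0.19 did not pass (adjusted p = 0.236). The untreated ApoE-/- arrays spread wider than the others, with an SD of 0.47 against 0.21 to 0.28.

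The second Fads2 probe, ILMN_2519802, read 8.51, 8.01, 8.25, 7.66 and 7.62 in untreated and 7.35, 6.79, 7.07, 5.82 and 6.00 in treated wild-type livers. In ApoE-/- livers it read 8.56, 8.14, 7.62, 7.85 and 7.76 without and 7.33, 7.58, 7.36, 6.62 and 7.01 with the antagonist. In both genotypes all 5 treated arrays lay below all untreated ones. The change was -1.40 ± 0.27 in wild type (2.65-fold lower, adjusted p = 0.000296) and -0.80 ± 0.27 in ApoE-/- (1.75-fold lower, adjusted p = 0.028). In wild type the probes of Fads2 thus passed together, and in ApoE-/- they shared the sign but not the call. The ApoE-/- call of ILMN_2519802 was lost without any 1 of 4 arrays (treated replicates 4 and 5, untreated replicates 1 and 2; adjusted p = 0.0521 to 0.0837) and without the detection filter (adjusted p = 0.0701), whereas with the replicate number as a block its adjusted p was 0.00123.

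Fads1, the delta-5 desaturase, which acts after Fads2 and lies beside it on the chromosome, did not follow it. ILMN_2607786 read 13.61, 13.74, 13.62, 13.42 and 13.46 in untreated and 13.19, 13.19, 13.55, 13.54 and 13.68 in treated wild-type livers, a change of -0.14 ± 0.14 (adjusted p = 0.461). In ApoE-/- livers it read 13.08, 12.89, 12.68, 13.47 and 13.06 without and 13.38, 13.57, 13.73, 13.24 and 13.55 with the antagonist. The untreated ApoE-/- arrays were the low ones, replicate 4 excepted, and 3 of 5 treated arrays exceeded them all. Fads1 rose there by 0.46 ± 0.14 (1.37-fold, adjusted p = 0.0154). When each set was fitted on its own, the rise was 0.68 in array set 1 (adjusted p = 0.0045). In set 2, where treated and untreated ApoE-/- arrays also differ in the number read as a slide, it was 0.13 (adjusted p = 0.701). Fitted over both sets, the rise missed the threshold without untreated replicate 3 (adjusted p = 0.0519) and under median scaling of the arrays (0.36, adjusted p = 0.292). Fads3, the other neighbour of Fads2, changed by 0.10 ± 0.16 in wild type (adjusted p = 0.691) and -0.03 ± 0.16 in ApoE-/- (adjusted p = 0.922). Fen1, a flap endonuclease of DNA replication beside Fads1, rose in both (0.96 ± 0.16 with adjusted p = 7.18e-05, and 0.56 ± 0.16 with adjusted p = 0.0115).

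Elovl5 lengthens the products of Fads2. ILMN_2652757 read 13.53, 13.48, 13.07, 13.40 and 13.38 in untreated and 12.74, 12.99, 12.68, 12.65 and 12.85 in treated wild-type livers. All treated wild-type arrays were below all untreated ones, by -0.59 ± 0.17 on average (1.5-fold lower, adjusted p = 0.00762). The ApoE-/- arrays read 13.90, 13.10, 12.84, 13.84 and 13.24 without and 13.02, 13.46, 13.15, 13.27 and 13.13 with the antagonist. All treated values lay inside the range of the untreated ones, and the change was -0.18 ± 0.17 (adjusted p = 0.471). In wild type the value was nearly the same in the 2 array sets, -0.56 and -0.64, but passed in neither alone (adjusted p = 0.0966 and 0.0551).

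Elovl2, which carries chains on towards docosahexaenoic acid, fell in both genotypes. ILMN_2714222 read 11.56, 11.22, 11.55, 11.70 and 11.46 in untreated and 10.92, 10.41, 11.05, 11.11 and 11.35 in treated wild-type livers, a change of -0.53 ± 0.16 (1.45-fold lower, adjusted p = 0.013). In ApoE-/- livers it read 11.86, 11.60, 11.52, 11.90 and 11.74 without and 10.94, 10.93, 10.84, 11.30 and 11.62 with the antagonist, a change of -0.60 ± 0.16 (1.51-fold lower, adjusted p = 0.00804). In each genotype 4 of 5 treated arrays lay below all untreated ones, and replicate 5 was the highest treated array in both. The change was -0.65 and -0.76 in array set 1 and -0.35 and -0.36 in set 2, wild type first, and did not pass in set 2 (adjusted p = 0.176 and 0.229). With arrays scaled to equal medians the wild-type change was -0.43 and did not pass (adjusted p = 0.133).

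Elovl3, an elongase of saturated and monounsaturated chains, had the largest wild-type change of the 10 probes and the largest spread. ILMN_2682207 read 9.22, 8.90, 9.56, 8.20 and 8.15 in untreated and 8.71, 6.55, 7.99, 5.34 and 5.01 in treated wild-type livers, a change of -2.08 ± 0.64 (4.24-fold lower, adjusted p = 0.0139). Treated replicate 1 lay among the untreated arrays, and treated replicates 4 and 5 were lowest of all 20. In ApoE-/- livers it read 7.80, 8.16, 8.19, 8.80 and 8.18 without and 6.04, 8.48, 7.44, 9.18 and 9.69 with the antagonist, and the change was -0.06 ± 0.64 (adjusted p = 0.959). Its treated arrays thus ran both below and above the untreated ones.

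The 2 array sets gave different pictures of Elovl3. Fitted on its own, set 1 gave -1.47 in wild type (adjusted p = 0.064) and -0.73 in ApoE-/- (adjusted p = 0.376), and set 2 gave -3.00 (adjusted p = 0.000249) and 0.94 (adjusted p = 0.0577). The genotype difference of these effects was 0.74 in set 1 (adjusted p = 0.803) and 3.94 in set 2 (adjusted p = 0.0104), each set holding 3 and 2 arrays a group. A fit with a mean for every group and set, chosen after seeing the data, tested whether the effect itself differed between sets. The effect in set 2 minus that in set 1 was -1.53 ± 0.79 in wild type (adjusted p = 0.943) and 1.68 ± 0.79 in ApoE-/- (adjusted p = 0.525). In ApoE-/- the set 2 effect cannot be told apart from the number read as a slide. In that fit 0 of 18285 probes passed for wild type, with 1035 at an unadjusted p under 0.05, and 10 passed for ApoE-/-, none of them of the 10 probes described here. For Fads1 the same differences were 0.52 ± 0.23 (adjusted p = 0.858) and -0.55 ± 0.23 (adjusted p = 0.466).

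**Figure D3:**
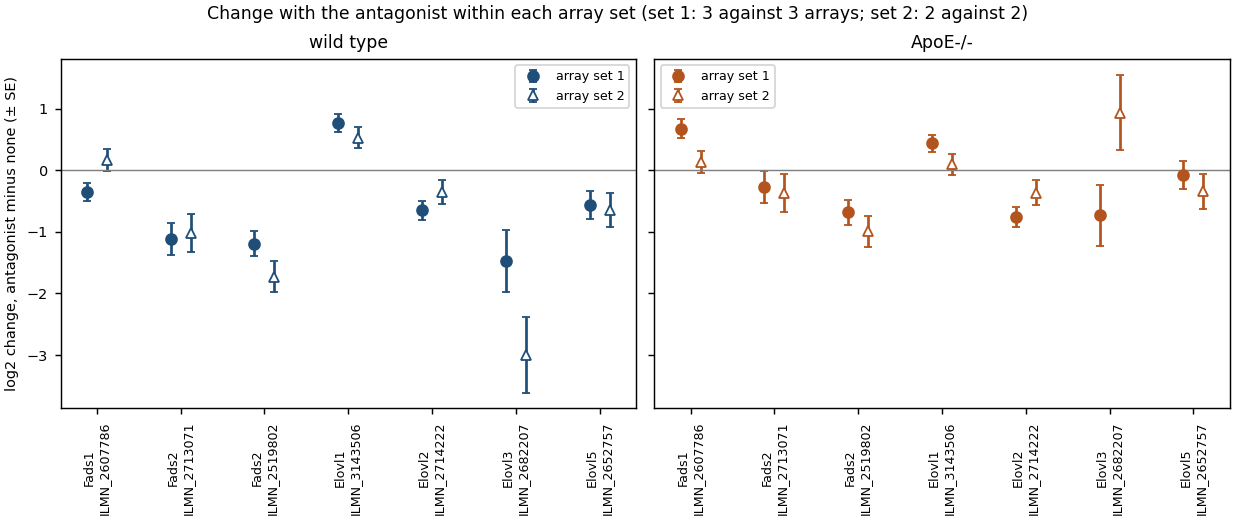
Log2 change with the antagonist (y axis, estimate ± SE from the fit with a mean for every group and set) in array set 1 (circles) and set 2 (open triangles) for 7 probes (x axis), with wild type on the left and ApoE-/- on the right. Elovl5 in wild type is at -0.56 in set 1 and -0.64 in set 2, and Fads2 ILMN_2519802 at -1.19 and -1.73, whereas Elovl3 in ApoE-/- is at -0.73 in set 1 and 0.94 in set 2.

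Elovl1, which extends saturated very long chains used in sphingolipids, had 4 tested probes, which differed in sign, and only 1 was called in wild type. The platform table assigns them to different transcript records, only ILMN_2723491 and ILMN_1224780 to the same one. Whether the changes of these probes differ from one another was not tested. ILMN_3143506, which holds the highest signal of them, read 8.53, 8.26, 8.37, 7.93 and 7.95 in untreated and 9.02, 9.27, 9.18, 8.60 and 8.32 in treated wild-type livers. In 4 of 5 treated arrays it exceeded every untreated one, and it rose by 0.67 ± 0.23 (1.59-fold, adjusted p = 0.0241). The ApoE-/- arrays read 8.68, 8.23, 8.35, 7.84 and 7.90 without and 8.95, 8.99, 8.64, 8.01 and 7.93 with the antagonist, a change of 0.30 ± 0.23 (adjusted p = 0.353). Replicates 4 and 5 were the lowest in all 4 groups, and with the replicate number as a block the ApoE-/- change of 0.30 passed (adjusted p = 0.045). The wild-type rise was lost without any 1 of 4 arrays (treated replicates 2 and 3, untreated replicates 4 and 5; adjusted p = 0.058 to 0.0707) and without the detection filter (adjusted p = 0.0581), whereas with the replicate block its adjusted p was 0.000139.

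The other Elovl1 probes showed smaller differences. ILMN_2723491 ranged from 6.23 to 6.85 and from 6.07 to 7.13 in untreated and treated wild-type livers and from 5.77 to 6.62 and from 6.03 to 6.94 in ApoE-/- livers, with changes of 0.26 ± 0.21 (adjusted p = 0.376) and 0.22 ± 0.21 (adjusted p = 0.484). With arrays scaled to equal medians its wild-type change was 0.69 and passed (adjusted p = 0.0168). ILMN_1224780 ranged from 4.67 to 6.04 over the 20 arrays and changed by -0.02 ± 0.20 in wild type (adjusted p = 0.951) and -0.27 ± 0.20 in ApoE-/- (adjusted p = 0.353). With the replicate block the latter passed (adjusted p = 0.0362), so that 5 of the 10 probes passed in ApoE-/- with the block and 3 without. ILMN_2771824 ranged from 4.40 to 5.99 and changed by -0.12 ± 0.25 (adjusted p = 0.745) and -0.29 ± 0.25 (adjusted p = 0.428). Both of these probes were near the detection limit, with 19 and 17 of 20 arrays detected, where a change is understated.

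With arrays scaled to equal medians the median change of all probes was 0.21 in wild type in place of -0.03, a shift of 0.24, and 85.2% of the called probes were higher in place of 50.6%. In ApoE-/- the share was 63% in place of 48.7%. Relative to that median, the changes in wild type were -0.98 and -1.24 for the Fads2 probes, -0.75 for Elovl5, -0.64 for Elovl2, -2.03 for Elovl3 and 0.76 for ILMN_3143506 of Elovl1. Each of these kept its direction under both scalings. Of the probes that did not pass in wild type, ILMN_1224780 went from -0.02 to 0.32 and ILMN_2771824 from -0.12 to 0.19 with that scaling.

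The antagonist effect was compared between genotypes directly. For 5 of the 10 probes, those of Fads1, Fads2, Elovl3 and Elovl5, the effect in ApoE-/- was above that in wild type: the difference was 0.60 ± 0.19 for Fads1 (adjusted p = 0.125), 0.76 ± 0.27 (adjusted p = 0.154) and 0.60 ± 0.38 (adjusted p = 0.524) for Fads2, 2.02 ± 0.91 for Elovl3 (adjusted p = 0.302) and 0.41 ± 0.23 for Elovl5 (adjusted p = 0.459). None of the 10 passed, where 0.76% of all probes were called higher and 1.57% lower. An unadjusted p under 0.05 was found for 3 of the 10 and for 2617 of all 18285 probes. The Elovl2 effects differed by -0.07, with a 95% interval from -0.54 to 0.41, so a difference in either direction up to about the size of the effect itself is within the interval. The difference for Fads1 passed without untreated ApoE-/- replicate 4 (adjusted p = 0.0467), with array weights (0.71, adjusted p = 0.0423) and in array set 1 alone (1.02, adjusted p = 0.0417), and it was -0.04 in set 2 (adjusted p = 0.959). With the replicate block 666 probes passed over the array in place of 426, and none of these 10.

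Without treatment, Fads1 was the gene of the 6 that differed between genotypes. It was lower in untreated ApoE-/- than in untreated wild-type livers by -0.53 ± 0.14 (1.45-fold, adjusted p = 0.026), where 1.25% of all probes were lower and 3.41% higher, and 4 of 5 ApoE-/- arrays lay below all wild-type ones. The difference was -0.77 in array set 1 (adjusted p = 0.00784). In set 2, where the untreated genotypes also differ in the number read as a slide, it was -0.17 (adjusted p = 0.724). Fitted over both sets, the difference missed the threshold without any 1 of 5 arrays (untreated wild-type replicates 1, 2 and 3, untreated ApoE-/- replicates 2 and 3, adjusted p = 0.0559 to 0.0808). The same held under median scaling (-0.40, adjusted p = 0.507) and with the treated arrays left out of the fit (adjusted p = 0.0582). The remaining 9 probes differed by -0.58 to 0.22, with adjusted p from 0.578 to 0.994. No probe of the 10 had groups that did not overlap, against 5.96% of all probes. The comparison of untreated genotypes shares its arrays with both antagonist comparisons.

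With treatment, none of the 10 probes passed between genotypes, where 2.56% of all probes were higher and 1.84% lower in ApoE-/-. An unadjusted p under 0.05 was found for 4 of the 10 and for 2941 of all 18285 probes. Elovl5 was higher on every treated ApoE-/- array than on every treated wild-type one (0.42 ± 0.17, adjusted p = 0.179), and 4.19% of all probes had groups without overlap in one direction or the other. Fads2 was higher by 0.59 ± 0.19 (adjusted p = 0.0822) and 0.57 ± 0.27 (adjusted p = 0.296) by its probes, and with the replicate block ILMN_2519802 passed (adjusted p = 0.0478), while over the array 1241 probes passed in place of 806. Elovl3 differed by 1.45 ± 0.64 (adjusted p = 0.257), from -0.43 in array set 1 (adjusted p = 0.833) to 4.26 in set 2 (adjusted p = 0.00033). Fads1, lower in untreated ApoE-/- livers, differed by 0.07 ± 0.14 in the treated ones (adjusted p = 0.901).

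Each round of elongation is completed by partner enzymes of the elongases. Of 6 tested partner genes 4 fell in wild type, and in ApoE-/- 3 fell and 1 rose, with medians of -0.36 and -0.32 against -0.03 and -0.02 over all probes. Hsd17b12, the ketoacyl-CoA reductase of the cycle, fell by 0.98 ± 0.13 in wild type (adjusted p = 6.26e-06) and by 1.15 ± 0.13 in ApoE-/- (adjusted p = 3.19e-06). Among the hydroxyacyl-CoA dehydratases, Hacd2 fell by 0.66 ± 0.14 and 0.51 ± 0.14 (adjusted p = 0.00105 and 0.0112), Hacd1 fell by 0.39 ± 0.11 and 0.59 ± 0.11 (adjusted p = 0.00955 and 0.000489), wild type first, and Hacd3 in wild type by 0.34 ± 0.09 (adjusted p = 0.00488). Tecr, the enoyl reductase that closes the round, rose in ApoE-/- by 0.45 ± 0.13 (adjusted p = 0.0141), as Fads1 did there.

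The remaining desaturase and elongase genes split. Of 5 tested, 2 rose and 2 fell in wild type and 1 fell in ApoE-/-, with medians of 0.10 and -0.03. Elovl6, which extends palmitate, fell by 0.82 ± 0.17 and 0.86 ± 0.17 (adjusted p = 0.000597 and 0.000596). Scd1, the main liver stearoyl-CoA desaturase, fell by 0.69 ± 0.19 in wild type (adjusted p = 0.00627) and was higher in ApoE-/- than in wild type without (1.01 ± 0.19, adjusted p = 0.00173) and with the antagonist (1.38 ± 0.19, adjusted p = 0.000125), the reverse of Fads1 without it. Degs1, the desaturase of ceramide synthesis, rose in wild type by 0.57 ± 0.08 (adjusted p = 1.16e-05), and its effect differed between genotypes by -0.44 ± 0.12 (adjusted p = 0.046).

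Of 5 tested genes that pass electrons to the desaturases, 1 rose and 1 fell in wild type and 1 fell in ApoE-/-. Their medians were -0.04 and -0.16. Over all probes 18.9% rose and 18.4% fell in wild type and 14.9% fell in ApoE-/-. The counts therefore do not set these genes apart. Cyb5r3 fell in wild type by 0.58 ± 0.12 (adjusted p = 0.000857) and Cyb5r1, another cytochrome b5 reductase gene, rose by 0.69 ± 0.12 (adjusted p = 0.000112). Its effect differed between genotypes by -0.92 ± 0.17 (adjusted p = 0.00609). Of 3 acyl-CoA synthetase genes, which activate fatty acids before these steps, Acsl3 rose in both genotypes, by 0.65 ± 0.14 and 0.97 ± 0.14 (adjusted p = 0.00116 and 3.7e-05), and none fell. The medians of the 3 genes were -0.21 and -0.10.

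Genes of steps that follow chain synthesis were counted next. Of 6 tested genes of peroxisomal chain shortening, the last step towards docosahexaenoic acid, 5 fell in each genotype and none rose, with medians of -0.72 and -0.64. Acaa1b, a peroxisomal thiolase whose probe may also read its close copy Acaa1a, fell by 2.22 ± 0.15 in wild type (adjusted p = 5.57e-10) and by 0.97 ± 0.15 in ApoE-/- (adjusted p = 6.37e-05), and these effects differed (1.25 ± 0.21, adjusted p = 0.00315). Abcd3, a peroxisomal fatty acyl-CoA transporter, fell by 1.25 ± 0.12 and 0.67 ± 0.12 (adjusted p = 1.04e-07 and 0.000317). Of 3 genes that place acyl chains into phospholipids 2 fell in each genotype: Lpcat3, which inserts polyunsaturated chains, by 0.76 ± 0.13 and 0.69 ± 0.13 (adjusted p = 8.47e-05 and 0.000396), and Agpat3 by 0.69 ± 0.12 and 0.55 ± 0.12 (adjusted p = 0.000127 and 0.00166).

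Among 12 tested regulators of these genes 2 rose and 6 fell in wild type, and 3 rose and 2 fell in ApoE-/-, with medians of -0.34 and -0.14. Ppara, the fatty acid receptor, fell by 1.29 ± 0.13 and 0.45 ± 0.13 (adjusted p = 9.07e-08 and 0.0111), with a genotype difference of 0.84 ± 0.18 (adjusted p = 0.015). Nr1h3, the liver X receptor alpha, rose by 0.74 ± 0.12 and 0.48 ± 0.12 (adjusted p = 3.45e-05 and 0.00319). Insig1, a sterol-sensing retention protein and itself a target of the sterol regulatory element binding proteins, rose in ApoE-/- by 1.42 ± 0.19 (adjusted p = 1.29e-05). Srebf1, which encodes the lipogenic member of that family, changed by -0.23 ± 0.23 and -0.38 ± 0.23 and did not pass (adjusted p = 0.46 and 0.237).

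Elovl3 is known as male-biased and rhythmic in liver, and both kinds of genes were counted beside it. Of 11 tested male-biased genes 10 fell in wild type and 4 in ApoE-/-, with medians of -1.50 and -0.69. Nudt7, a peroxisomal CoA hydrolase, fell by 1.94 ± 0.23 and 1.43 ± 0.23 (adjusted p = 1.21e-06 and 9.4e-05), and the fatty acid hydroxylase gene Cyp4a12a, whose close copy Cyp4a12b its probe may also read, by 2.63 ± 0.33 and 1.40 ± 0.33 (adjusted p = 2.49e-06 and 0.00307). Of 13 tested clock genes 1 fell in wild type, Per2 (-1.04 ± 0.25, adjusted p = 0.00257), where 18.4% of all probes fell. In ApoE-/- 1 rose and 3 fell, where 14.2% of all probes rose and 14.9% fell. Among the 3 was Dbp, an output gene of the clock (-2.56 ± 0.64, adjusted p = 0.00454). The medians of the clock genes were -0.31 and 0.10. The labels used here give no hour of tissue collection.

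**Figure D4:**
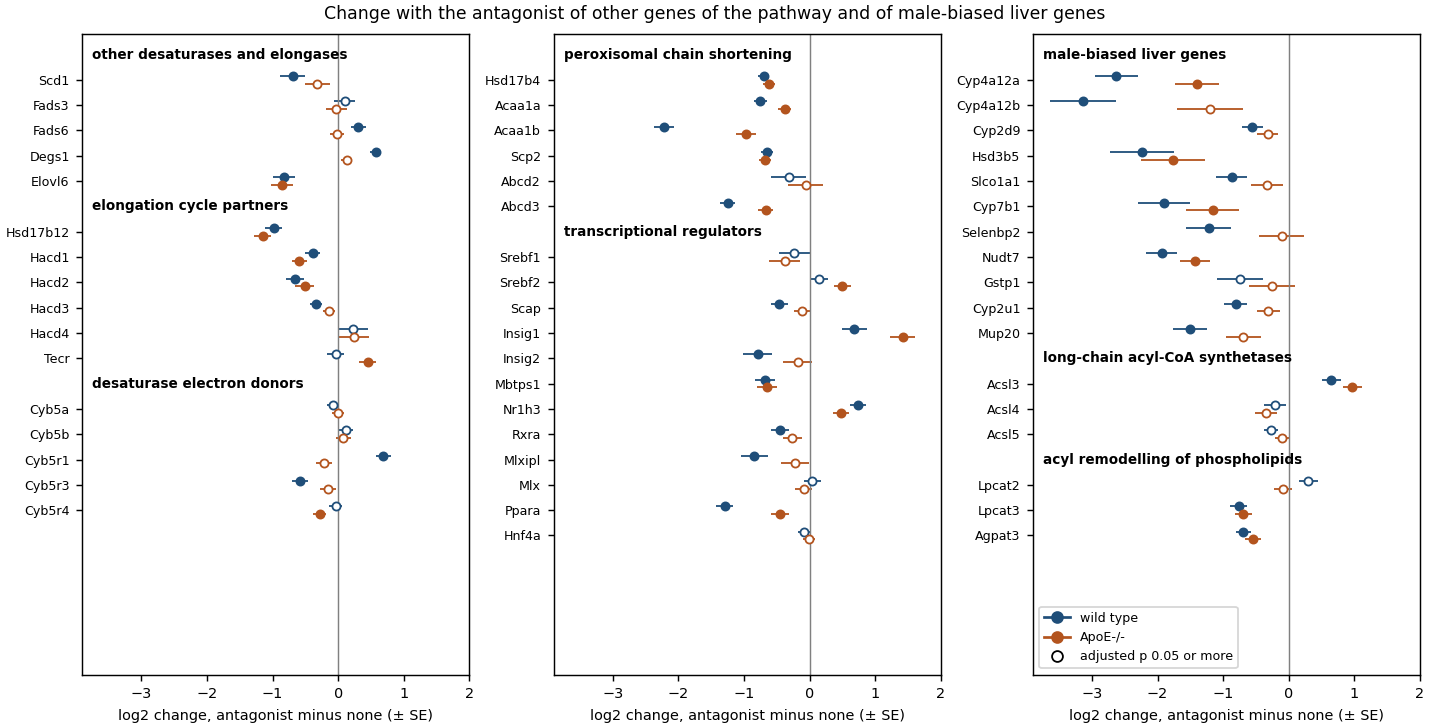
Log2 change with the antagonist ± SE (x axis) for tested genes of 8 lists (rows) in wild type (blue) and ApoE-/- (brown), filled where the adjusted p was under 0.05. Peroxisomal and male-biased genes have medians left of 0 in both genotypes. Of 11 male-biased genes 10 were called lower in wild type and 4 in ApoE-/-. Acsl3, Insig1 and Nr1h3 lie to the right.

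The genes whose profiles over the 20 arrays came nearest to each of the 6 were found by the root mean square difference of centred log2 signals, over 10361 other named genes and on 1 probe a gene. For Fads2 they were Acot8, a peroxisomal thioesterase gene (0.244), Entpd5 (0.244) and Slc25a20, the mitochondrial carnitine carrier (0.257), where Fads2 itself varied by 0.496 about its mean. For Elovl2 they were Ccdc91 (0.161), Hadhb, of mitochondrial beta-oxidation (0.178), and Hacd1, a partner in the elongation cycle (0.180), against 0.382 for Elovl2 itself. For Elovl5 they were Map7 (0.184), Gpx4, a glutathione peroxidase acting on lipid peroxides (0.188), and Tor1a (0.204), against 0.344. For Fads1, Dnajb1 (0.198), Gpr107 (0.210) and Gsta3 (0.211) stood only a little below its own 0.282. For Elovl1 they were the ribosomal protein genes Rpl34 (0.201) and Rpl19 (0.209) and Bola2 (0.206), against 0.446. For Elovl3 they were Mup21 (0.649), Cyp7b1 (0.759) and Mup20 (0.789), against 1.281, and the Mup genes have close copies that a probe may not separate.

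Among the 6 genes themselves, Fads2 and Elovl5, consecutive steps of the pathway, had the nearest profiles (0.269), followed by Elovl2 with Elovl5 (0.355) and Fads2 with Elovl2 (0.40). Fads1 was 0.536 away from Fads2, more than from Elovl5 (0.427), but Fads2 itself varied more (0.496 against 0.344). Elovl3 was farthest from all others, 1.109 to 1.501, and itself varied most (1.281). Its distances to Fads2 (1.109), Elovl2 and Elovl5 (1.177 each) were below that value, those to Fads1 (1.323) and Elovl1 (1.501) above it. Signals were centred but not scaled, so the distance grows with each gene's own variation. It cannot rank these genes by likeness of pattern alone.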

How the data were processed

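Biotinylated cRNA made from total liver RNA of 20 samples was measured on Illumina BeadChips, per the labels' protocols. The deposited non-normalized table holds signal intensity on a linear scale, not background-subtracted, and a detection p-value for each of 45281 probes and each array. Array means are equal within 4 sets (genotype by array set), so a scaling came before deposit. Its method is not given in the sources used here, where the submitters' processing notes name GenomeStudio and BeadStudio. The authors also deposited processed intensity values, of rank correlation 1 with the first on every array and with medians of 103.60 to 103.62, by a normalization that stays unknown. They served as an alternative. Probes were named by the platform's probe table, of which 34885 had 1 symbol, 18 several and 10378 none.

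Background was corrected by normexp, with negative controls inferred from detection, an offset of 16 was added and arrays were quantile-normalized (neqc of limma 3.58.1, R 4.3.3), followed by the detection filter (p under 0.05 on at least 5 of 20 arrays, 18285 probes). Every probe was fitted on its own with 4 group means over all 20 arrays and moderated by empirical Bayes. A call is a Benjamini-Hochberg adjusted p under 0.05 over all 18285 probes, two-sided, in each of 5 contrasts. Intervals are 95%. The fit was tested on simulated data.

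Groups and replicate numbers come from the labels, which do not state whether replicates are separate animals. The p-values therefore reflect only how these samples vary, in part perhaps for technical reasons, and the number of arrays limits the precision. Same-numbered samples deviated together: correlations of deviations from the group means were 0.31 to 0.40 for the 5 wild-type pairs, 0.18 to 0.43 for the ApoE-/- pairs and 0.12 to 0.26 for the treated genotypes. For the untreated genotypes they were 0.00 to 0.47, with 1 pair at 0.00. Over all groups, 15 arrays deviated most like an array with their own replicate number. The main fit was not paired in any comparison. The replicate number entered as a block only in an alternative fit, which was made for every comparison. The replicate numbers also follow the array sets.

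The genes described, the other lists, their naming rule (all probes of the 7 genes, from each other list its counts and at most 3 called genes with the smallest adjusted p, and 3 nearest profiles a gene) and the tests were chosen with earlier results of these data known. Where a gene of the other lists had several probes, the one with the highest mean was used. List genes without a tested probe are not analysed here. A list's count is read beside the median and the called shares over all probes, with no test of the list. Those shares were 18.9% higher and 18.4% lower in wild type, and 14.2% higher and 14.9% lower in ApoE-/-. Start-site windows and neighbouring genes come from RefSeq tables of GRCm38.p6. Alternatives were the authors' processed values, background correction, median scaling, offset, filters, 1 probe a gene, the groups in the fit, array set, slide (as read from the column names) and replicate blocks, array weights, and each array left out.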

Additional observations from a re-analysis of the deposited data

Results flagged for a closer look

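One value stood far from the others of its group. The Elovl1 probe ILMN_2771824 read 4.40 (normalised log2 signal) on treated ApoE-/- replicate 4, below the 5.11 to 5.39 of the other 4 arrays of that group, a gap of 0.713 of the group's whole range. It was 1 of 40 groups of 5 arrays examined for the 10 probes, and chance alone marks about 1 in 20 such groups. The probe was detected on 4 of 5 arrays of that group and passed in no comparison.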

How the results depend on the processing

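For 50 results (10 probes in 5 comparisons), 1320 refitted values were set against the reported ones. Of these 1278 kept the call, 28 lost the threshold, 14 newly passed it and 0 turned the sign of a called value. Values without a call could turn their sign, as Elovl3 in ApoE-/- did from -0.06 to 0.94 within array set 2. Beside those in the report, ILMN_2713071 of Fads2 did not pass in wild type within array set 2 (-1.02, adjusted p = 0.0525), its treated genotype difference passed with array weights (adjusted p = 0.0354), ILMN_2519802 passed there within array set 2 (0.90, adjusted p = 0.0265), and ILMN_3143506 of Elovl1 passed with the array set as a block in ApoE-/- (adjusted p = 0.0393) and between treated genotypes (adjusted p = 0.0471) and within array set 1 in ApoE-/- (0.44, adjusted p = 0.0449). Of the 10 probes, 6 passed in wild type but 3 within array set 2, where groups hold 2 arrays; in ApoE-/- 3 passed, 5 with the replicate block and 1 within set 2. For the genotype difference of the effect 0 passed, and 1 within set 1, within set 2 and with array weights. Between untreated genotypes 1 passed, and 0 with median scaling, with only the groups compared and within set 2. Between treated genotypes 0 passed, 1 with the array-set block, the replicate block or array weights, and 2 within set 2. Leaving out 1 array gave 5 to 6, 2 to 3, 0 to 1, 0 to 1 and 0 to 0 probes, in the order of wild type, ApoE-/-, difference, untreated and treated genotypes. Over all probes the counts were 6819 in wild type (4479 within set 2; 6097 to 6717 without 1 array), 5323 in ApoE-/- (1356 within set 2; 4511 to 5816) and 853 between untreated genotypes (166 within set 2; 680 to 806). The difference had 426, against 274 without the detection filter, 650 with the array-set block, 161 and 233 within sets 1 and 2, 666 with the replicate block, 251 without treated wild-type replicate 4 and 659 without treated ApoE-/- replicate 1. Treated genotypes had 806, against 402 with only the groups compared, 1211 with the array-set block, 301 within set 1, 1241 with the replicate block, 1505 with array weights, 522 without treated ApoE-/- replicate 3 and 1193 without treated ApoE-/- replicate 1. With median scaling the share of called probes that were higher was 5.87% in place of 32.6% for the difference, 88.2% in place of 73.2% between untreated and 33.3% in place of 58.2% between treated genotypes. Sets hold fewer arrays, and the causes of the other shifts were not tested. The replicate block changed no other call of these probes than those given. Signal close to background limits the 2 dim Elovl1 probes, and nothing can be said of Scd2.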
